A study of Drosophila melanogaster with 6 samples.

Results

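The circadian clock genes period (per), timeless (tim), Clock (Clk), cycle (cyc), vrille (vri), PAR-domain protein 1 (Pdp1), clockwork orange (cwo) and cryptochrome (cry) were followed in midguts of adult Drosophila melanogaster by RNA sequencing of total RNA. They were chosen by name, and all 8 were found by exact name among the 15391 genes of the count table and all 8 were among the 8377 genes with enough reads to be tested. The knockdown group, Rab11_KD, expressed an RNA interference construct against Rab11, a small GTPase of recycling endosomes, from Myo1A-Gal4, which drives expression in the absorptive enterocytes of the gut. The control group is labelled WT, and nothing more is given of its genotype or of which transgenes it carried. Each group has 3 libraries (n = 3), and flies of both groups were moved to 29 °C at 5 days after eclosion and held there for 5 days. No source used here gives the hour of dissection or the light regime, so that a difference in time of day between the groups cannot be told apart from the knockdown by the labels.

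The fly clock is a transcriptional feedback loop. The proteins CLK and CYC form a pair that binds E-boxes in DNA and switches on per and tim, whose proteins return to the nucleus and block that pair. In a second loop the same pair switches on vri and Pdp1, whose proteins repress and activate Clk. CWO competes at the E-boxes, and CRY is a blue-light photoreceptor that leads to the loss of TIM. In fly heads the RNAs of per, tim, vri and cwo peak around the start of the night, that of Pdp1 somewhat later, and those of Clk and cry peak on the opposite side of the day, from late night into the day, while cyc RNA stays flat. Clocks of this kind also run in cells of the gut epithelium, where they have been tied to the timing of stem cell division.

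Sequencing depth lay between 9818914 and 33082790 counted reads per library, and the replicate 3 library of either group was deeper than the rest. Levels below are CPM, a gene's reads as a share of all reads in the library, after scaling by TMM, a method that fits a factor to each library. Changes are log2 fold changes of Rab11_KD over WT from edgeR's quasi-likelihood test, with adjustment over all tested genes and a threshold of 0.05. Rab11 itself stood at 64.4, 78.2 and 78.7 CPM in the Rab11_KD libraries 1, 2 and 3 and at 319, 269.6 and 219 CPM in the WT libraries 1, 2 and 3. RNA came from whole midguts, so fewer cells of a type and less RNA per cell cannot be told apart.

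Of the 8 clock genes, tim, Clk and per fell in the Rab11_KD midguts and none rose. Their fitted levels were 29.1%, 38.5% and 49.7% of those in WT. The other CLK partner, cyc, stood at 108% of the WT level, and vri, Pdp1, cwo and cry had fitted levels of 60.7% to 76.1% of WT that did not pass the threshold. Over all tested genes 7.63% were called lower and 9.05% higher, and 16.7% were called in either direction. With a single library left out the calls among the 8 numbered 0 without Rab11_KD replicate 1 or without WT replicate 1, where 5.4% and 6.54% of all genes were called, 2 without the replicate 2 library of Rab11_KD or of WT (7.39% and 8.72% of all genes), and 3 without the replicate 3 library of Rab11_KD or of WT (13.5% and 12.9% of all genes). The median log2 fold change was -0.67 over the 8 clock genes and 0.04 over all tested genes. The groups did not overlap for 5 of the 8, all lower in Rab11_KD, where 17.7% of all tested genes were lower without overlap.

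**Figure D1:**
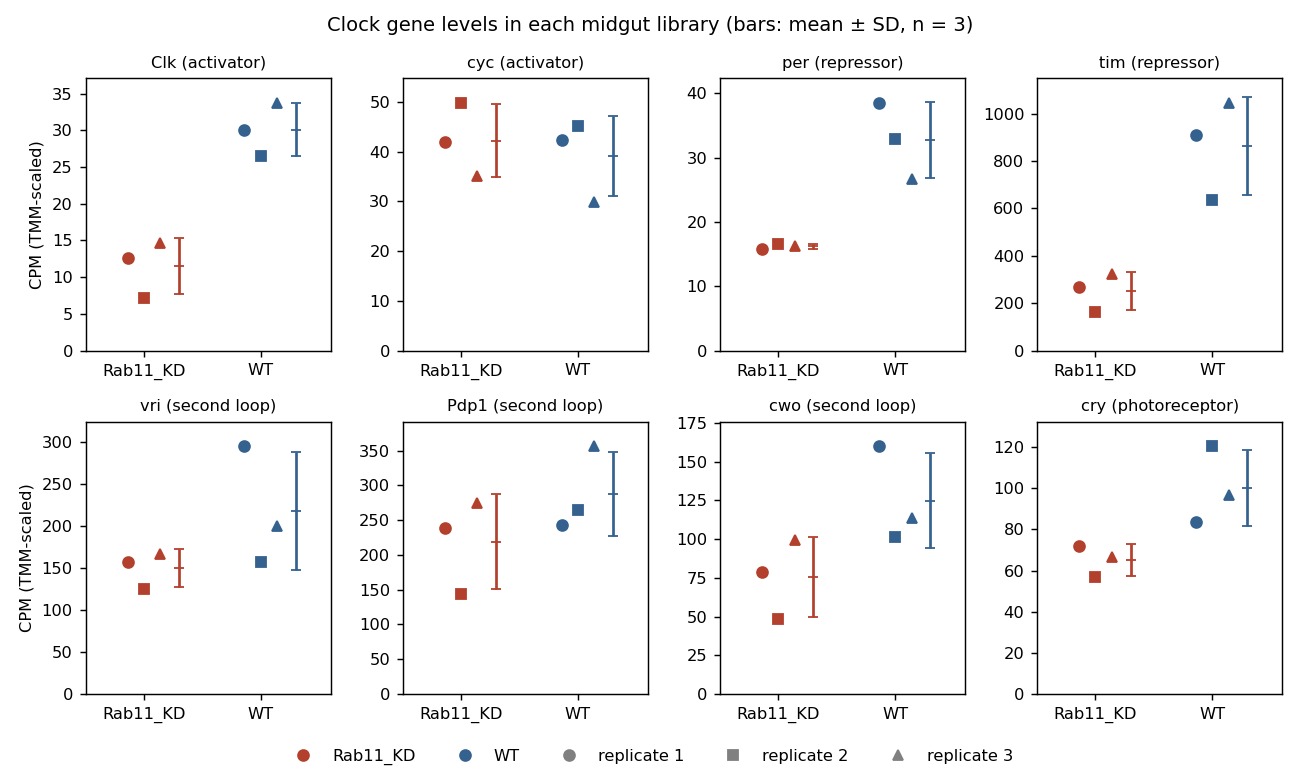
Level of each clock gene in CPM (TMM-scaled, linear axis from 0) in the 3 Rab11_KD and the 3 WT libraries, with marker shape for the replicate number and mean ± SD beside the points. The Rab11_KD points of Clk, per and tim lie far below the WT points, those of cwo and cry lie just below them, and those of cyc, vri and Pdp1 overlap with WT.

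The activator pair was split. Clk, which encodes the bHLH-PAS factor CLOCK, had 12.7, 7.24 and 14.6 CPM in Rab11_KD libraries 1, 2 and 3, and 30.1, 26.5 and 33.7 CPM in WT libraries 1, 2 and 3. Every Rab11_KD library was thus below every WT library, with replicate 2 the lowest in each group. The means were 11.5 ± 3.81 CPM in Rab11_KD and 30.1 ± 3.60 CPM in WT (SD, n = 3 each), at a log2 fold change of -1.38 (SE 0.29) and a 95% interval of -2.05 to -0.71 (edgeR, adjusted p = 0.0195). The value of Rab11_KD replicate 2 rests on 64 reads, with an exact Poisson interval of 5.57 to 9.24 CPM that covers counting error only and lies below the lowest WT library. The call of Clk was lost without Rab11_KD replicate 1 (adjusted p = 0.0748) or WT replicate 1 (0.0645), at log2 fold changes of -1.44 and -1.38.

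Its partner cyc, a bHLH-PAS factor related to mammalian BMAL1, had 41.9, 49.8 and 35.1 CPM in Rab11_KD libraries 1, 2 and 3, and 42.3, 45.2 and 30.0 CPM in WT libraries 1, 2 and 3. The groups overlapped throughout, and in each the replicate 2 library was the highest and the replicate 3 library the lowest. The log2 fold change was 0.11, with a 95% interval of -0.43 to 0.65 (edgeR, adjusted p = 0.791), which leaves out a fall as large as that fitted for Clk, per or tim. Its sign turned, to -0.02 and -0.10, without Rab11_KD replicate 2 or WT replicate 3. The 2 partners can be set against each other inside a library, where scaling between libraries plays no part. There were 0.302, 0.145 and 0.416 Clk reads per cyc read in Rab11_KD libraries 1, 2 and 3, against 0.712, 0.586 and 1.12 in WT libraries 1, 2 and 3.

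The repressor tim fell the most of the 8. It had 268, 164 and 322 CPM in Rab11_KD libraries 1, 2 and 3, and 909, 638 and 1044 CPM in WT libraries 1, 2 and 3. The groups were far apart, and within each group replicate 2 was the lowest and replicate 3 the highest. The means were 252 ± 80.2 CPM in Rab11_KD and 864 ± 207 CPM in WT (SD, n = 3 each), at a log2 fold change of -1.78 (SE 0.35, edgeR, adjusted p = 0.017). By the size of its fall it was number 280 of the 8377 genes. Its call was lost without Rab11_KD replicate 1 (adjusted p = 0.0788) or WT replicate 1 (0.0605), at log2 fold changes of -1.82 and -1.74. In the annotation at hand, 9.89% of its exonic bases lie in a snoRNA on the same strand or a long noncoding RNA on the other strand, neither of which has a row of its own in the count table.

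The partner of TIM, per, had 15.8, 16.6 and 16.3 CPM in Rab11_KD libraries 1, 2 and 3, and 38.5, 33.0 and 26.7 CPM in WT libraries 1, 2 and 3. The Rab11_KD libraries were nearly level with each other, at a coefficient of variation of 2.67%, against 18.0% in WT. This gave a log2 fold change of -1.01 (SE 0.20, edgeR, adjusted p = 0.017). The call of per was lost without Rab11_KD replicate 1 (adjusted p = 0.0849), Rab11_KD replicate 2 (0.0547), WT replicate 1 (0.0704) or WT replicate 2 (0.0573), at log2 fold changes of -1.02 to -0.87. In the WT libraries per and tim did not move together, since replicate 3 was the lowest for per and the highest for tim.

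Of the second loop, vri, a bZIP repressor of Clk, had 158, 124 and 167 CPM in Rab11_KD libraries 1, 2 and 3, and 295, 157 and 199.9 CPM in WT libraries 1, 2 and 3. WT replicate 2 lay among the Rab11_KD libraries. The log2 fold change was -0.54, with a 95% interval of -1.20 to 0.12 (edgeR, adjusted p = 0.235). Without WT replicate 1, its highest library, it was -0.25, and without WT replicate 2 it was -0.72. Neither value passed the threshold.

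Pdp1, a bZIP activator of Clk, had 238, 144 and 276 CPM in Rab11_KD libraries 1, 2 and 3, and 242, 265 and 356 CPM in WT libraries 1, 2 and 3. The groups overlapped, with Rab11_KD replicate 2 apart at the low end. The log2 fold change was -0.39, with a 95% interval of -1.11 to 0.32 (edgeR, adjusted p = 0.424), and -0.16 without Rab11_KD replicate 2. The annotation lists 13 transcripts of Pdp1, of which only some are known to cycle in heads, and the gene counts do not separate them.

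The bHLH repressor cwo had 79.0, 48.4 and 99.6 CPM in Rab11_KD libraries 1, 2 and 3, and 159.9, 101 and 114 CPM in WT libraries 1, 2 and 3. The groups did not overlap, though the highest Rab11_KD library came close to the lowest WT library. The log2 fold change was -0.72, with a 95% interval of -1.45 to 0.01 (edgeR, adjusted p = 0.159, and 0.0508 with the replicate number as a block). It was -0.48 without Rab11_KD replicate 2.

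The photoreceptor gene cry had 71.8, 56.8 and 66.5 CPM in Rab11_KD libraries 1, 2 and 3, and 83.7, 120.4 and 96.7 CPM in WT libraries 1, 2 and 3. The groups did not overlap. Its log2 fold change of -0.62 (SE 0.21) did not pass (edgeR, adjusted p = 0.0833). DESeq2, a related count test, gave -0.64 and an adjusted p of 0.0488, a call that edgeR did not make, where DESeq2 called 10.5% of its genes lower. Of its exonic bases, 17.8% are shared with other annotated genes, nearly all with a long noncoding RNA on the same strand that has no row in the count table.

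In the authors' deposited table, tim, Clk, per and cry are listed and the other 4 are not, and every gene listed there has an adjusted p of at most 0.0998. It lists 2450 genes in all, where the count table has 15391. It is their comparison of these same groups, not a separate experiment. The authors' deposited table gives log2 fold changes of -1.71 for tim, -1.34 for Clk, -0.996 for per and -0.62 for cry, with adjusted p of 1.75e-06, 0.000208, 0.00049 and 0.0387.

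**Figure D2:**
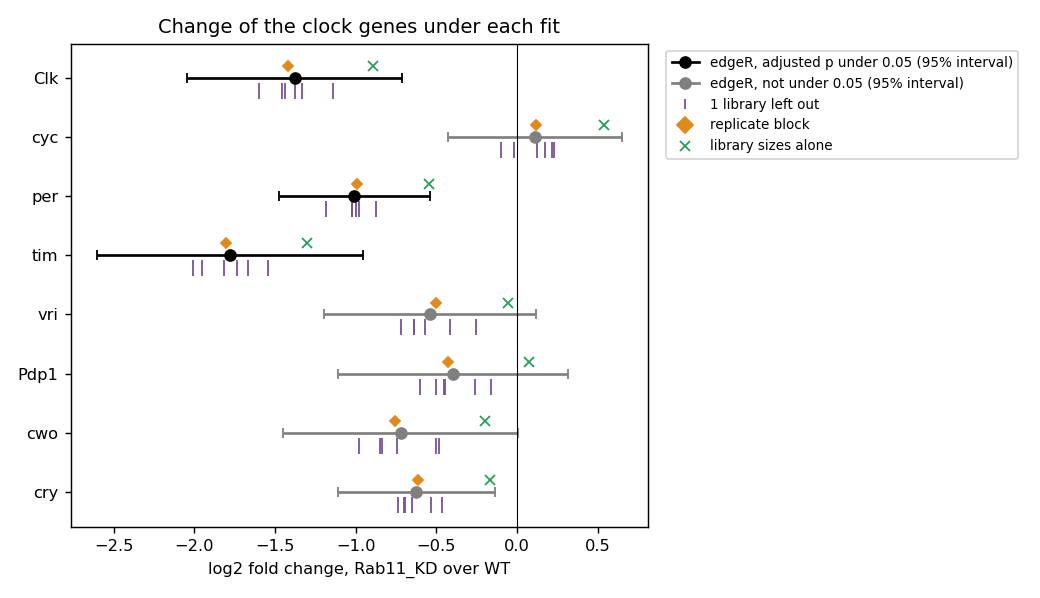
Log2 fold change (Rab11_KD over WT) of each clock gene with its 95% interval from edgeR, black where the adjusted p is under 0.05. Ticks mark the value with a single library left out, diamonds the fit with a replicate block, and crosses the fit with library sizes alone. Clk, per and tim stay below 0 in each fit shown, and the crosses of all 8 genes lie to the right of the other marks.

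The size of these changes depends on how libraries are scaled. When only library sizes were used, the median of all tested genes moved up to 0.47 on the log2 scale, and the calls of tim, Clk and per were lost, at log2 fold changes of -1.30, -0.89 and -0.55 and adjusted p of 0.102, 0.212 and 0.193, while Pdp1 turned to 0.077. Taken relative to the median of all genes, tim stood at -1.77, Clk at -1.36 and per at -1.01 with library sizes alone, and at -1.81, -1.41 and -1.04 with TMM. On that relative scale Pdp1 stood at -0.39 with library sizes alone and at -0.43 with TMM.

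Ratios between clock transcripts in the same library do not depend on scaling. There were 21.2, 22.7 and 22.1 tim reads per Clk read in Rab11_KD libraries 1, 2 and 3, against 30.2, 24.1 and 31.0 in WT libraries 1, 2 and 3. The Rab11_KD libraries were thus close to each other and just below WT, although the levels of tim and Clk spanned 1.96-fold and 2.02-fold among them. The ratio of tim to cwo was 3.39, 3.40 and 3.24 in Rab11_KD libraries 1, 2 and 3, against 5.69, 6.30 and 9.19 in WT libraries 1, 2 and 3. Reads of vri per tim read went the other way, at 0.588, 0.757 and 0.518 in Rab11_KD libraries 1, 2 and 3, against 0.324, 0.247 and 0.191 in WT libraries 1, 2 and 3. Relative to cwo and vri, which are targets of the same CLK and CYC pair, tim was thus lower in each Rab11_KD library than in any WT library. The ratio of tim to per overlapped between the groups, at 9.89 to 19.7 in Rab11_KD and 19.3 to 39.1 in WT, as did that of vri to Pdp1, at 0.606 to 0.866 in Rab11_KD and 0.561 to 1.22 in WT, and that of per to Clk, at 1.12 to 2.30 in Rab11_KD and 0.793 to 1.28 in WT (exact permutation p = 0.2, 1 and 0.5). Of 9 ratios computed, an exact two-sided permutation test gave p = 0.1 for tim to Clk, tim to cwo, tim to cry, vri to tim, vri to Clk and Clk to cyc, the smallest p that 3 libraries against 3 allow, and 0.15 after adjustment over the 9. Each of these ratios holds tim or Clk, which were called as lower. The ratios are therefore not independent of those calls or of each other. How often other gene pairs part between the groups was not tested.

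**Figure D3:**
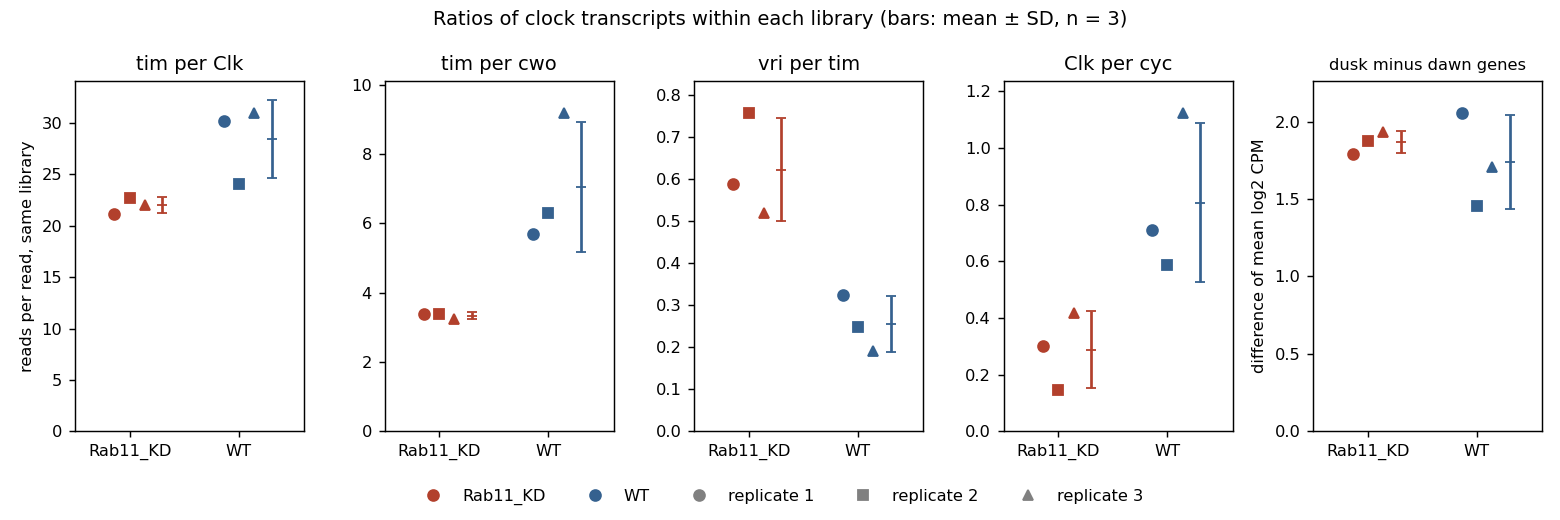
Reads of a clock gene per read of another in the same library (first 4 panels) and the mean log2 CPM of the dusk genes per, tim, vri, Pdp1 and cwo minus that of the dawn genes Clk and cry (last panel), with mean ± SD beside the points. The 4 ratios are apart between Rab11_KD and WT, while the difference of dusk and dawn genes in Rab11_KD, at 1.79 to 1.93, lies within the WT range of 1.45 to 2.06.

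Genes that peak on opposite sides of the day in heads both had lower mean levels in Rab11_KD. The mean log2 CPM of the dusk genes per, tim, vri, Pdp1 and cwo was 6.71, 6.23 and 6.90 in Rab11_KD libraries 1, 2 and 3, and 7.71, 7.28 and 7.54 in WT libraries 1, 2 and 3. That of the dawn genes Clk and cry was 4.92, 4.35 and 4.97 in Rab11_KD libraries 1, 2 and 3, and 5.65, 5.82 and 5.84 in WT libraries 1, 2 and 3. Each Rab11_KD library lay below each WT library for either set. The dusk set holds the called tim and per and the dawn set the called Clk, so this restates those calls in part. Of the genes not called, cwo and cry did not overlap between the groups on their own, while vri and Pdp1 did. Over all tested genes 17.7% were lower without overlap. The difference of dusk minus dawn genes was 1.79, 1.88 and 1.93 in Rab11_KD libraries 1, 2 and 3 and 2.06, 1.45 and 1.71 in WT libraries 1, 2 and 3, so that the Rab11_KD values lay inside the WT range. The group means of this difference were 1.87 ± 0.07 in Rab11_KD and 1.74 ± 0.30 in WT (SD, n = 3 each), apart by 0.13, less than the pooled SD of 0.22. With per, tim and vri alone as the dusk genes, the means were 1.64 in Rab11_KD and 1.72 in WT. These values are a description of the libraries, without a test, and the part of time of day in the falls was not tested.

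Several clock genes varied together among the Rab11_KD libraries. Rab11_KD replicate 2 was the lowest library of its group for Clk, tim, vri, Pdp1, cwo and cry, by 0.19 to 0.60 below the group mean in log2 CPM, while cyc and per were at their highest there, at 0.25 and 0.03 above it. Dusk and dawn genes shared this dip, at mean deviations of -0.38 and -0.39. Each of the nearest profiles given below was also lowest of its group there, which their choice by likeness to tim or Clk fixes in part. Whether the dip is particular to clock genes was not tested. In Rab11_KD replicate 3 the dusk and dawn genes were 0.29 and 0.22 above the group mean. In the WT group the deviations were mixed, with vri and cwo highest in replicate 1, cry and cyc in replicate 2, and tim, Clk and Pdp1 in replicate 3.

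**Figure D4:**
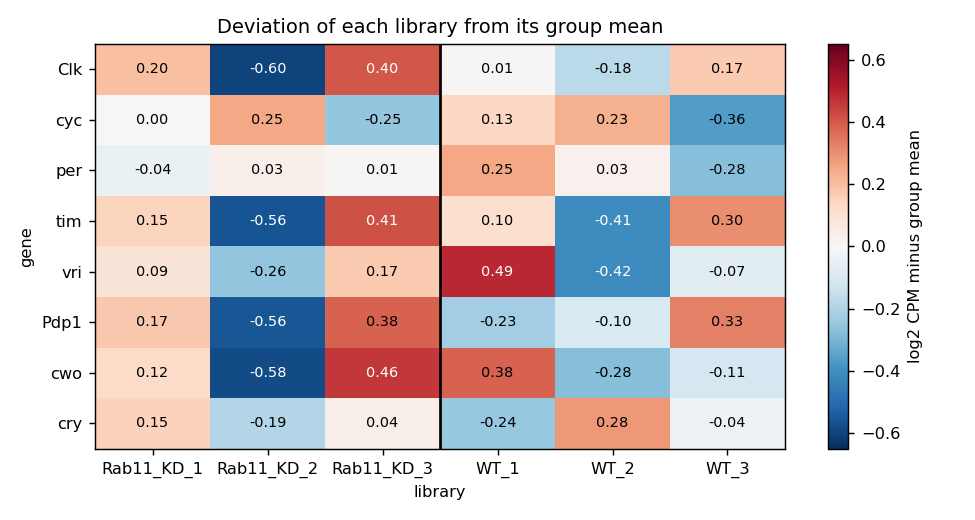
Log2 CPM of each clock gene (rows) in each library (columns) minus the mean of its group, with the value printed in each cell. Rab11_KD replicate 2 is below its group mean for 6 of the 8 genes and Rab11_KD replicate 3 above it for 7, while WT replicate 1 is above its group mean for 6 and WT replicates 2 and 3 for 3 each.

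Apart from per, the SD of log2 CPM within Rab11_KD exceeded that of 19.2% (cry) to 74.8% (cwo) of all tested genes, those with few reads included. In WT it exceeded that of 21% (Clk) to 65.1% (vri). The SD in Rab11_KD was 0.50 for tim, 0.04 for per, 0.23 for vri, 0.49 for Pdp1, 0.53 for cwo, 0.53 for Clk, 0.25 for cyc and 0.17 for cry. The median was 0.31 over the 5881 genes that averaged at least 10 CPM. In WT it was 0.37 for tim, 0.26 for per, 0.46 for vri, 0.29 for Pdp1, 0.34 for cwo, 0.17 for Clk, 0.32 for cyc and 0.26 for cry, against a median of 0.28 over the same genes. Only per in Rab11_KD stood near an end of the range, with a smaller SD than all but 1.22% of the tested genes. The highest library exceeded the lowest by 1.96-fold for tim, 1.05-fold for per and 1.34-fold for vri in the Rab11_KD group. In the WT group it did so by 1.64-fold, 1.44-fold and 1.87-fold.

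Levels were compared between genes as CPM per kilobase of exonic length, taken from a later annotation than the one used for counting. On this scale tim had the highest mean of the 8 in either group, at 35.7 ± 11.4 in Rab11_KD and 123 ± 29.4 in WT (SD, n = 3 each). In Rab11_KD library 2, however, tim at 23.4 stood below cyc at 30.6, cry at 29.9 and vri at 26.2. In Rab11_KD, tim, cry at 34.3 ± 4.03 and vri at 31.6 ± 4.73 differed by less than the larger SD of each pair, as did tim and cyc. Next were cyc at 26.0 ± 4.53, Pdp1 at 18.0 ± 5.60, cwo at 14.9 ± 5.06, per at 3.59 ± 0.10 and Clk at 2.55 ± 0.84, of which Pdp1 and cwo differed by less than the larger SD. In WT tim stood apart at the top, and the order went on with cry at 52.9 ± 9.82, vri at 45.9 ± 14.8, cwo at 24.5 ± 6.08, cyc at 24.1 ± 4.97, Pdp1 at 23.7 ± 4.96, per at 7.23 ± 1.30 and Clk at 6.66 ± 0.80. In that order cry and vri, then cwo, cyc and Pdp1, and then per and Clk differed by less than the larger SD of each neighbouring pair. As level per length, tim stood above 79.1% of the tested genes in Rab11_KD and above 92% in WT, and Clk above 20.2% in Rab11_KD and above 40.5% in WT.

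Among the 8, the profiles of tim and Clk over the 6 libraries were the most alike, with a root mean square difference of 0.22 in mean-centred log2 CPM, followed by vri and cwo at 0.23. The profiles of tim and cyc were the least alike, at 1.12. Among 5880 other genes that averaged at least 10 CPM, the 5 nearest to tim were CG33181 at 0.18, CG9005 at 0.18, the chloride channel gene ClC-a at 0.20, ome, which encodes a dipeptidyl peptidase, at 0.21, and foxo at 0.21. The forkhead factor foxo, which acts downstream of insulin signalling, was also the nearest to Clk, at 0.13. It had 40.9, 29.7 and 55.0 CPM in Rab11_KD libraries 1, 2 and 3, and 107, 90.6 and 140.1 CPM in WT libraries 1, 2 and 3. Then came CG10353 at 0.14, the phosphate cotransporter gene Picot at 0.14, dm, which encodes Myc, at 0.16, and CG30118 at 0.16. The 5 named for Clk had log2 fold changes of -1.58 to -1.25 and the 5 named for tim had -1.98 to -1.42, which the choice by profile fixes in part, since it includes the difference between the groups.

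Genes that act on the clock proteins, carry time cues or are known clock outputs were followed from 4 lists of 38 genes. Of these, 33 were tested and 3 were called, 2 as higher and 1 as lower, where 16.7% of all tested genes were called. The median log2 fold change of the 33 was 0.12. With the replicate number as a block 7 were called, where 14% of all tested genes were called lower and 15.2% higher.

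Of 14 kinases, phosphatases and turnover factors of clock proteins none was called, with a median log2 fold change of 0.11. At an unadjusted p under 0.05 there were 2, dco, which encodes the PER kinase Doubletime, at 0.49 (edgeR, adjusted p = 0.119) and ctrip, which encodes a ubiquitin ligase that acts on CLK, at -0.73. Over all tested genes, 2739 of 8377 had an unadjusted p of at most 0.0519 (edgeR). DESeq2 called 1 of the 14. The gene ctrip had 155, 137 and 207 CPM in Rab11_KD libraries 1, 2 and 3 and 279, 259 and 293 CPM in WT libraries 1, 2 and 3, without overlap, and its adjusted p in edgeR was 0.0704, or 0.032 with the block and 0.0421 without Rab11_KD replicate 3. The most abundant of the list, the PP2A catalytic subunit gene mts, averaged 326 ± 32.7 CPM in Rab11_KD and 249 ± 64.0 CPM in WT (SD, n = 3 each), at an adjusted p of 0.349 in edgeR. The GSK3 kinase gene sgg stood at -0.15, the F-box gene slmb, whose product marks PER for degradation, at 0.40, and jet, an F-box gene needed for the loss of TIM in light, at 0.06, and none of these passed.

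Of 10 cofactors of clock gene transcription and translation, 9 were tested. Of these 1 rose and 1 fell, where 9.05% of all tested genes were called higher and 7.63% lower. The median of the 9 was -0.31. The Fos factor kay rose to 213, 192 and 247 CPM in Rab11_KD libraries 1, 2 and 3, against 91.1, 109 and 103 CPM in WT libraries 1, 2 and 3 (log2 fold change 1.11, edgeR, adjusted p = 0.0127). The call of kay was lost without Rab11_KD replicate 1 (adjusted p = 0.0576) or WT replicate 1 (0.0634). Mef2, a factor of muscle and of clock neurons, fell to 38.7, 28.6 and 34.8 CPM in Rab11_KD libraries 1, 2 and 3, against 54.2, 59.1 and 58.1 CPM in WT libraries 1, 2 and 3 (log2 fold change -0.75, edgeR, adjusted p = 0.0337). Its call was lost with any single library left out, at adjusted p of 0.0563 to 0.102. With the block, Eip75B, a nuclear receptor gene with a role in clock neurons, also passed as lower (-0.60 without the block, adjusted p = 0.0975 without and 0.0308 with it), and lark, an RNA-binding protein gene, as higher (0.57, adjusted p = 0.266 without and 0.0426 with it). NAT1, a translation factor, was the most abundant of the list and stood at 0.27 (adjusted p = 0.477).

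Of 6 genes for light and temperature input and the clock peptide PDF, 5 were tested and none was called, at a median of 0.01. At an unadjusted p under 0.05 there was 1, norpA, the phospholipase C of phototransduction, and DESeq2 called 1 gene of the list. Over all tested genes, 2739 of 8377 had an unadjusted p of at most 0.0519 (edgeR). In edgeR norpA had 10.7, 7.35 and 16.0 CPM in Rab11_KD libraries 1, 2 and 3 and 19.4, 24.7 and 47.4 CPM in WT libraries 1, 2 and 3, at a log2 fold change of -1.42 (edgeR, adjusted p = 0.0568, 0.00624 with the block and 0.0449 without Rab11_KD replicate 3). The PDF receptor gene Pdfr averaged 4.12 ± 1.61 CPM in Rab11_KD and 6.15 ± 2.18 CPM in WT (SD, n = 3 each) and did not pass (adjusted p = 0.349). Pdf had too few reads to be tested. The most abundant of this list, nocte, a gene of temperature entrainment, stood at 0.12.

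Of 8 known clock outputs 5 were tested and 1 rose, where 9.05% of all tested genes were called higher. The median of the 5 was 0.20. Slob, whose product binds the Slowpoke potassium channel and whose RNA cycles in heads, had 8.70, 16.1 and 10.6 CPM in Rab11_KD libraries 1, 2 and 3, and 1.78, 3.06 and 2.26 CPM in WT libraries 1, 2 and 3. It rose by 2.31 on the log2 scale (SE 0.36, edgeR, adjusted p = 0.00697), and it passed with each single library left out. Its WT levels rest on few reads, 14, 24 and 72 in WT libraries 1, 2 and 3. In Rab11_KD libraries 1, 2 and 3 there were 123, 142 and 506. Rab11_KD replicate 2, the lowest library for tim and Clk, was the highest for Slob. The gene takeout (to), a clock output linked to feeding and the most abundant of the list, had 70.9, 87.0 and 72.9 CPM in Rab11_KD libraries 1, 2 and 3 and 123, 98.5 and 120.2 CPM in WT libraries 1, 2 and 3, without overlap, at -0.57 (adjusted p = 0.0838). Fmr1, gol and na, at 0.14, 0.43 and 0.20, did not pass.

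**Figure D5:**
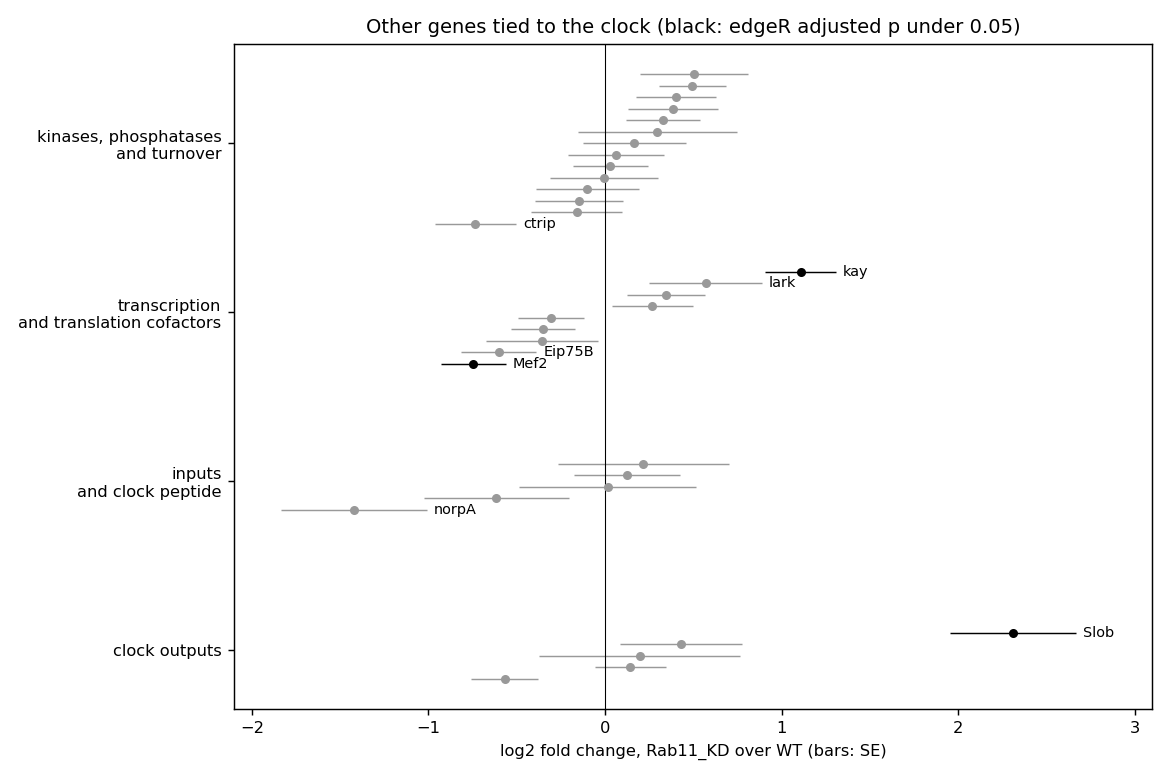
Log2 fold change (Rab11_KD over WT) with its SE for the tested genes of the 4 lists of genes tied to the clock, black where edgeR's adjusted p is under 0.05. Names are given for those that passed with or without the replicate block. Slob stands apart at 2.31, and most of the others lie within 1 of 0 on the log2 scale.

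The labels name the cell type as enterocyte, while the RNA is from dissected midguts, in which markers of other cell types were also present. Of 5 enteroendocrine markers, all 5 rose, with a summed level of 427 to 560 CPM in Rab11_KD and 145 to 178 CPM in WT, though only 2 to 4 of them passed with a single library left out. Over all tested genes 9.05% were called higher and 7.63% lower. With a single library left out, 5.4% to 13.5% of all genes were called in either direction. Of 5 stem cell and enteroblast markers, 3 rose and none fell, with sums of 149 to 162 CPM in Rab11_KD and 30.7 to 75.5 CPM in WT, and 2 to 3 passed with a single library left out. Of 7 enterocyte markers none passed in edgeR (3 at an unadjusted p under 0.05, while DESeq2 and the replicate block each called 1 higher and 3 lower). In either direction, DESeq2 called 21.2% of all genes and the block 29.3%. Over all tested genes, 2739 of 8377 had an unadjusted p of at most 0.0519 (edgeR). The sum of the enterocyte markers, made up mostly of digestive enzymes, was 26422, 54217 and 14519 CPM in Rab11_KD libraries 1, 2 and 3 and 92159, 102530 and 56735 CPM in WT libraries 1, 2 and 3. Rab11_KD replicate 2, the lowest for 6 of the clock genes, had the highest such sum of its group. Neuron markers summed to 16.6 to 30.7 CPM in Rab11_KD and 12.2 to 15.3 CPM in WT, and none of the 4 tested passed (1 at an unadjusted p under 0.05, and 0 in DESeq2). Visceral muscle and Malpighian tubule markers overlapped between the groups, at 476 to 649.8 and 193 to 346 CPM in Rab11_KD and 471 to 1110 and 134 to 384 CPM in WT. Sums also overlapped for trachea, at 10.6 to 15.3 CPM in Rab11_KD and 7.49 to 11.7 CPM in WT, for fat body, at 4.31 to 64.6 CPM in Rab11_KD and 1.27 to 20.3 CPM in WT, and for hemocytes, at 0.495 to 1.68 CPM in Rab11_KD and 0.255 to 0.508 CPM in WT. The photoreceptor gene ninaE, the fat body gene Lsp2 and the hemocyte genes eater and He were at or near 0 in both groups. The part of these marker shifts in the falls of tim, Clk and per was not tested.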

How the data were processed

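Raw read counts per gene were deposited by the authors, together with a comparison table whose columns, per the file headers, are a mean normalized count and a Wald statistic (scores with no fixed range), log2 fold changes and their standard errors, and p-values with adjusted p-values. STAR 2.4.2a, HTSeq 0.6.1 and DESeq2 are named in the submitters' processing notes, with build BDGP5. No source used here states the counting mode or strand, so reads of a gene and of an overlapping or antisense gene cannot be told apart. Per the labels both Ion Torrent and Illumina protocols were used, with no word on which library had which, and no word on whether libraries came from separate flies. The p-values thus describe the spread between these samples only, which may be technical.

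Groups and replicate numbers came from the titles. Genes were kept by filterByExpr (minimum count 10), scaled by TMM and tested with edgeR 4.0.16 in R 4.3.3 (quasi-likelihood F-test, two-sided, group alone as a term, Benjamini-Hochberg adjustment). DESeq2 1.42.0 was an alternative. Standard errors and 95% intervals follow from the log2 fold change, its F statistic and its degrees of freedom. Log2 CPM used a prior count of 2. Exonic lengths, overlaps and synonyms came from an annotation of another build, BDGP6, so no coordinates are given, and all 88 listed genes were matched. Same-numbered libraries deviated together from their group means (correlations of 0.14, 0.21 and 0.72 across genes), so by a rule of every pair above 0.1 the replicate block is given where it changes a call. This pairing comes from the data, not the labels: Rab11_KD replicate 1 correlated more with WT replicate 2 (0.34), and Rab11_KD replicate 2 with WT replicate 1 (0.51). On simulated counts for this comparison with 8267 genes tested, edgeR recovered 4.08% of 49 genes with a 2-fold change and 72% of 50 with a 4-fold change. Only 49 or 50 genes were changed there at each fold of 1.5, 2, 4 and 8, whereas 16.7% of genes were called in the data. Adjusted p-values are stricter where few genes change, so the recovery in these data may differ from the simulated one.

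The members and lists were chosen with earlier results of these data known. By rule the text names the 8 members, Rab11, the called genes and most abundant gene of each list, and the 5 profiles nearest to tim and to Clk. Other list genes were named after their values were seen.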

Additional observations from a re-analysis of the deposited data

How the results depend on the processing

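The log2 fold changes of tim, Clk and per stayed below 0 in each of the 13 alternatives tried and past the threshold with DESeq2, DESeq2 size factors or upper-quartile factors in edgeR, no filter on low counts, the replicate block and without both replicate 3 libraries. With library sizes alone the 3 calls were lost (-1.30, -0.89 and -0.55), and Pdp1 turned to 0.077. With 1 library left out the ranges were -2.01 to -1.55 for tim, -1.60 to -1.14 for Clk and -1.18 to -0.87 for per. They were -0.10 to 0.23 for cyc, which turned to -0.02 without Rab11_KD replicate 2 and to -0.10 without WT replicate 3, -0.72 to -0.25 for vri, -0.60 to -0.16 for Pdp1, -0.98 to -0.48 for cwo and -0.74 to -0.47 for cry. DESeq2 called cry, at -0.64. The replicate block changed no call among the 8 clock genes.

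Over all genes 1397 were called, 54.3% of them higher, and 2451 with the replicate block, of which 1276 were higher. With library sizes alone 82.8% of 1394 calls were higher. Leaving out 1 library gave 460 (without Rab11_KD replicate 1) to 1138 calls (without Rab11_KD replicate 3). DESeq2 called 997 genes lower, against 639 in edgeR. The 3 calls among regulators and outputs became 5 with DESeq2, 7 with the replicate block, 5 without both replicate 3 libraries and 1 to 4 with 1 library left out, where 21.2%, 29.3%, 21.1% and 5.4% to 13.5% of all genes were called, against 16.7% in the fit reported. The difference of dusk and dawn genes ranged from -0.01 (without WT replicate 2) to 0.29 (without WT replicate 1) and was 0.13 with all libraries. Such fits hold fewer libraries, and beyond that the cause of lost calls was not tested. Clk rested on 64 to 1071 reads per library, and the part of depth in its precision was not tested.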
